A study of Mus musculus with 6 samples.

Results

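B cells are made in the bone marrow by ordered rearrangement of the antibody genes, and each step has its own set of genes. Precursor cells cut and join these genes with the RAG recombinase and test the new heavy chain on a surrogate light chain, a stand-in built from VpreB and lambda 5 proteins. Cells that pass the test replace it with a true light chain, leave the marrow as immature B cells and switch on the receptors of the mature B cell. A group of 10 such genes, out of 51802 gene symbols listed, was followed here in bulk RNA from the mouse cochlea. It was chosen because these same libraries had already shown higher levels in *Pou4f3(Δ/+)* than in wildtype, so the difference between the genotypes in these 10 genes is given as a description, without a test. By what they are known to do, 4 of the genes belong to the precursor stage (*Vpreb1*, *Vpreb3*, *Igll1* and *Rag1*), 5 are used from precursor to mature B cells (*Cd79a*, *Blnk*, *Spib*, *Fcrla* and *Fam129c*), and *Ms4a1* is switched on as cells leave the precursor stage.

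The libraries came from cochleae of 2 months old mice on a C57/BL6J background, 3 of *Pou4f3(Δ/+)* mice (replicates 1, 2 and 3) and 3 of wildtype mice (replicates 3, 4 and 5). *Pou4f3* encodes a transcription factor of hair cells, the sensory cells of hearing, and the Δ allele is a knock-in of a small deletion found in a family with the dominant deafness DFNA15, studied here as 1 line with 1 intact copy of the gene left. The labels give neither the sex nor the sequencing batch of a sample and do not say whether a library is 1 animal or a pool, so the spread between libraries may be in part technical. Depth was 14295069 to 17696784 expected counts per library. *Pou4f3* itself had 68, 72 and 88 counts in wildtype and 66, 97 and 52 in *Pou4f3(Δ/+)*, and both alleles add to these sums, so they do not check the labels. The hair cell markers *Myo7a*, *Otof* and *Slc26a5* were present in every library, with 8.13 to 10.3, 3.27 to 5.15 and 1.38 to 1.96 FPKM (fragments per kilobase of transcript, scaled to library size). Genes of marrow cells were far more abundant: the neutrophil genes *S100a8* and *S100a9* stood at 2701 to 3545 and 5017 to 6372 FPKM. Transcripts of marrow-type cells were thus present in all 6 cochlear libraries. In bulk RNA, fewer cells of a type and less RNA per cell cannot be told apart.

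The start regions of 5 members are shown: the 3 genes of the VpreB and lambda 5 proteins, and 2 genes of receptor signalling that are used from precursor to mature B cells. Each run covers 250 bases before to 50 bases after the RefSeq start site in GRCm38.p6, and capitals mark short motifs known from B cell promoters: the octamer ATTTGCAT bound by Oct factors, the Ets-type word GGAAGT, the E-box CAGGTG and the EBF-type word CCCNNGGG. Both strands were searched, so a capital stretch can also be the reverse complement of a motif, and no 2 capital stretches in the runs shown overlap.
Vpreb1, chr16:16869206-16869505, minus strand: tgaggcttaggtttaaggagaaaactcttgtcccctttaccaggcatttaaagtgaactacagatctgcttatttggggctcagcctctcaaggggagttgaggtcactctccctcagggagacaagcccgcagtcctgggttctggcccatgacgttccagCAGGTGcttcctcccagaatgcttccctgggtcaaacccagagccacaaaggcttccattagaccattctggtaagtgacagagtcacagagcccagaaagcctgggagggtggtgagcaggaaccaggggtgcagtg
Igll1, chr16:16863936-16864235, minus strand: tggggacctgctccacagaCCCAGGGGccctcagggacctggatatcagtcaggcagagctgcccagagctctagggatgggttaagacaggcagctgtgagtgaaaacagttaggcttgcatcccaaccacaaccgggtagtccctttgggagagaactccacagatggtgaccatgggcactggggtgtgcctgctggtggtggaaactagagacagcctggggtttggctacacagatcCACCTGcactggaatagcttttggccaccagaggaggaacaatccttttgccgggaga
Vpreb3, chr10:75948050-75948349, plus strand: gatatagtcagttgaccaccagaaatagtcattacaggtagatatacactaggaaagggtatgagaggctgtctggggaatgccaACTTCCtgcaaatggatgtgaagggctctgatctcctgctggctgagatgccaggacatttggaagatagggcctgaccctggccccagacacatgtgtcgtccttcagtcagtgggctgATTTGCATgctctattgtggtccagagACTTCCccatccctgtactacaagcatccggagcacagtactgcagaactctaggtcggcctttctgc
Blnk, chr19:40994172-40994471, minus strand: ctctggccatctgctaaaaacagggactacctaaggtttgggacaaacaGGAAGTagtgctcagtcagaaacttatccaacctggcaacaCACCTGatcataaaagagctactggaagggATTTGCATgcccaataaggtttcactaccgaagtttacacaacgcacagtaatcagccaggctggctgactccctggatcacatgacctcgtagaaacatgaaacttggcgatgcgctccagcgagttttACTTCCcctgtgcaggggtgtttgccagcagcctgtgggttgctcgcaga
Cd79a, chr7:24897247-24897546, plus strand: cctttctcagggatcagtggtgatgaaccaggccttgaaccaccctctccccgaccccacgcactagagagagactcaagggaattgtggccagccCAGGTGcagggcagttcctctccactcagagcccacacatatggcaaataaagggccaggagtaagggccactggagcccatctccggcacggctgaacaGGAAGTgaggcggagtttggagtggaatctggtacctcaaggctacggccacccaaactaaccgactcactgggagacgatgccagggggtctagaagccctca
Start regions were found for 9 of the 10 members. The octamer was in 2 of them, *Vpreb3* at bases -45 to -38 and *Blnk* at -130 to -123, and in 1.74% of the 32851 mouse start regions of the same length. The E-box was in 7 of 9 against 20.2% of all, the Ets-type word in 4 of 9 against 23.8%, and the EBF-type word in 3 of 9 against 13.7%. In *Spib* and *Fam129c* the EBF-type word matched at 2 places shifted by 1 base. These letter matches are a description and were not measured as binding sites.

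The genes of the surrogate light chain were low in wildtype cochleae and higher in every *Pou4f3(Δ/+)* library. *Vpreb1* (ENSMUSG00000059305, chromosome 16 from 16868403 to 16870843, minus strand, GRCm38), which encodes the variable-like part, was counted 11, 13 and 7 times in the wildtype libraries and 45, 40 and 22 times in the *Pou4f3(Δ/+)* libraries, given here and throughout in the order of the replicate numbers. Its level was 0.863 ± 0.330 FPKM in wildtype (SD, n = 3) against 2.90 ± 0.789 in the mutant (SD, n = 3), which gave a log2 fold change, written log2 FC with its standard error (SE) from here on, of 1.77 (SE 0.40). The groups did not overlap, and replicate 3 was the lowest of the *Pou4f3(Δ/+)* libraries. *Vpreb1* has a near copy, *Vpreb2*, whose transcript shares 739 of 759 aligned bases (97.4%), so reads could be split between them and the *Vpreb1* values are uncertain to that extent. *Vpreb2* itself had 0, 3 and 0 counts in wildtype and 1, 4 and 0 in *Pou4f3(Δ/+)* and was too low to test.

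*Igll1* (ENSMUSG00000075370), the lambda 5 gene, encodes the constant-like part and lies 4417 bases from *Vpreb1* on chromosome 16 (16860671 to 16863985). It had 28, 46 and 7 counts in wildtype and 112, 132 and 60 in *Pou4f3(Δ/+)*. Its level was 1.59 ± 1.19 FPKM in wildtype and 5.88 ± 1.72 in *Pou4f3(Δ/+)* (SD over 3 libraries each), with log2 FC = 1.88 (SE 0.56), which was 1.40 without wildtype replicate 5 and 2.63 without wildtype replicate 4. The wildtype libraries were the most uneven here, since replicate 5 held 0.235 and replicate 4 held 1.83 of the wildtype mean in CPM (counts scaled to library size), but the lowest *Pou4f3(Δ/+)* library was still above the highest wildtype library. *Igll1* and *Vpreb1* were the largest differences of the 10 members and also the 2 with the fewest counts.

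*Vpreb3* (ENSMUSG00000000903, chromosome 10 from 75943057 to 75949657, plus strand) encodes a related protein that binds the heavy chain inside precursor B cells. It was listed at 10.7, 18.5 and 13.0 FPKM in wildtype against 30.3, 35.8 and 21.9 in *Pou4f3(Δ/+)*. The groups lay apart, with log2 FC = 1.06 (SE 0.24). *Rag1* (ENSMUSG00000061311, chromosome 2 from 101638282 to 101649501, minus strand), a subunit of the recombinase, was listed at 3.65, 6.73 and 4.86 FPKM in wildtype against 9.19, 10.1 and 6.79 in *Pou4f3(Δ/+)*. Here the groups nearly touched, since wildtype replicate 4 stood at 44.1 CPM and *Pou4f3(Δ/+)* replicate 3 at 44.3 CPM. Its log2 FC was 0.78 (SE 0.22). *Rag1* shares 80 of its 6608 exon bases with *B230118H07Rik*, on the same strand.

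**Figure D1:**
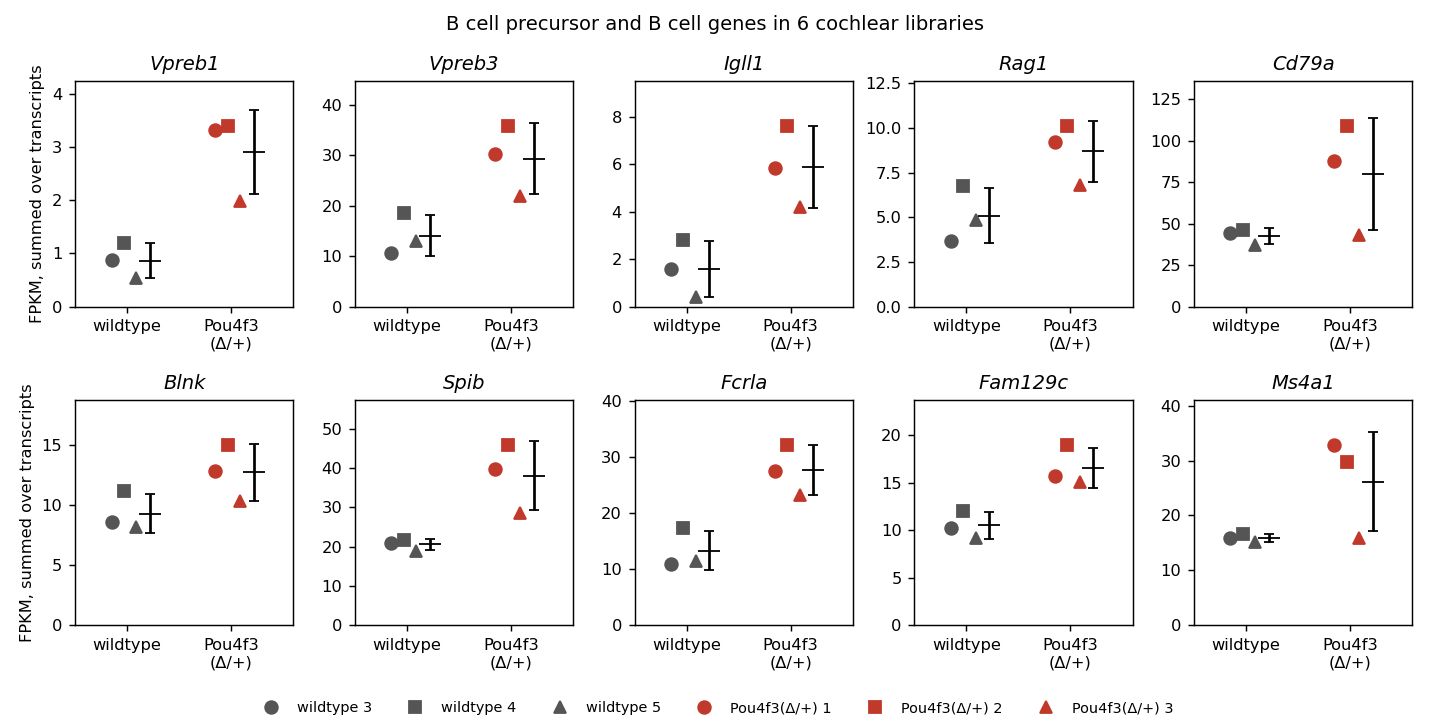
FPKM of each of the 10 member genes (y axis, linear, from 0) in the 3 wildtype (grey) and 3 Pou4f3(Δ/+) (red) libraries; the symbol gives the replicate and the bar the mean ± SD. Pou4f3(Δ/+) replicates 1 and 2 lie above all wildtype libraries for each gene, while replicate 3 (red triangle) lies within the wildtype range for Cd79a, Blnk and Ms4a1.

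The members that act from precursor to mature B cells split in *Pou4f3(Δ/+)* replicate 3. *Spib* (ENSMUSG00000008193, chromosome 7 from 44525993 to 44532071), an Ets-type transcription factor of B cells and plasmacytoid dendritic cells, was listed at 20.96, 21.7 and 19.0 FPKM in wildtype against 39.7, 46.0 and 28.6 in *Pou4f3(Δ/+)*, so that log2 FC = 0.92 (SE 0.18). *Fcrla* (ENSMUSG00000038421, chromosome 1 from 170917576 to 170927583), an Fc receptor-like protein kept inside B cells, was listed at 10.9, 17.3 and 11.5 FPKM in wildtype against 27.5, 32.2 and 23.2 in *Pou4f3(Δ/+)*, so that log2 FC = 1.04 (SE 0.19). For both genes each *Pou4f3(Δ/+)* library was above each wildtype library.

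*Fam129c* (ENSMUSG00000043243, chromosome 8 from 71597648 to 71607936), a B cell protein of the Niban family, was listed at 10.3, 12.02 and 9.21 FPKM in wildtype against 15.7, 19.0 and 15.1 in *Pou4f3(Δ/+)*. It had the smallest standard error of the members, with log2 FC = 0.73 (SE 0.13) and no overlap. Its sums are less certain than the others, because 776 of its 3560 exon bases are shared with *Pgls* on the same strand and it is the 1 member whose counts were not whole.

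For the other two genes of this stage the third library sat with wildtype. *Cd79a* (ENSMUSG00000003379, chromosome 7 from 24897381 to 24902197), a signalling chain of both the precursor and the mature B cell receptor, was listed at 44.6, 46.0 and 37.1 FPKM in wildtype against 88.0, 109 and 42.9 in *Pou4f3(Δ/+)*. Replicates 1 and 2 thus held 2.07 and 2.59 times the wildtype mean in CPM and replicate 3 held 0.993. Its log2 FC was 0.92 (SE 0.29), and with 1 library left out it ran from 0.62 (without *Pou4f3(Δ/+)* replicate 2) to 1.23 (without replicate 3). *Blnk* (ENSMUSG00000061132, chromosome 19 from 40928927 to 40994535), the adaptor that passes on the receptor's signal, was listed at 8.57, 11.1 and 8.11 FPKM in wildtype against 12.8, 14.99 and 10.3 in *Pou4f3(Δ/+)*. Its log2 FC of 0.44 (SE 0.17) was the smallest of the members.

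*Ms4a1* (ENSMUSG00000024673, chromosome 19 from 11249675 to 11266241), which encodes the surface protein CD20, behaved as *Cd79a* did. It was listed at 15.8, 16.6 and 15.1 FPKM in wildtype against 32.9, 29.7 and 15.9 in *Pou4f3(Δ/+)*. Replicates 1 and 2 were near 2.08 and 1.91 times the wildtype mean in CPM, and replicate 3 at 0.991 of it lay inside the narrow wildtype range. Its log2 FC was 0.73 (SE 0.23), and with 1 library left out it ran from 0.53 (without *Pou4f3(Δ/+)* replicate 1) to 1.00 (without replicate 3).

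Across the 10 members the median log2 fold change was 0.92, against -0.00 over all 17136 genes tested, and in 7 of 10 the groups did not overlap with *Pou4f3(Δ/+)* higher, which held for 6.07% of all genes tested. The members were chosen on this difference, so these counts only describe them. In *Pou4f3(Δ/+)* replicates 1, 2 and 3, 10, 10 and 7 of the 10 were above each wildtype library, against 29.1%, 30.9% and 24.2% of all genes tested. Over the 6 libraries their log2 CPM values were correlated with one another at r = 0.73 to 0.99 over the 45 pairs, as a description that includes the genotype difference. The 6 other genes most alike to the mean of the members over the 6 libraries were *Prkar2b* (r = 0.999), *Blk* (r = 0.993), *Tigd2* (r = 0.993), *Zfp131* (r = 0.992), *Sh2d4b* (r = 0.991) and *Gm6525* (r = 0.990). Their log2 fold changes were 0.29, 1.21, 0.25, 0.17, 0.54 and 1.50, in the same order. These 6 were the top of a search over all genes tested, with only 6 libraries and the genotype difference included. A high r thus does not mark them as B cell genes.

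The levels of the members differed widely within a genotype. In wildtype, *Cd79a* was the highest at 42.5 ± 4.77 FPKM, then *Spib* at 20.5 ± 1.39 FPKM and *Ms4a1* at 15.8 ± 0.745 FPKM (SD, n = 3 each). *Ms4a1*, *Vpreb3*, *Fcrla*, *Fam129c* and *Blnk* followed in that order with each gene's range overlapping that of the next. *Rag1* (5.08 ± 1.55 FPKM), then *Igll1* and *Vpreb1*, were the lowest, the last 2 with overlapping ranges. In *Pou4f3(Δ/+)* the ranges of *Cd79a*, *Spib*, *Vpreb3*, *Fcrla*, *Ms4a1* and *Fam129c* each overlapped the next, and *Vpreb3* at 29.3 ± 7.01 FPKM stood before *Ms4a1* at 26.2 ± 9.07 FPKM.

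The division of a gene's reads among its transcripts is estimated, and *Rag1* and *Cd79a* were listed with 1 transcript each. The main coding transcript held 82.5% to 87.3% of *Ms4a1* and 84.7% to 93.0% of *Spib* in FPKM. Other members were less steady. *Vpreb1* and *Igll1* were each listed with 3 transcripts, of which 1 was found in GENCODE M21, and the one found (ENSMUST00000075017) held 0%, 100% and 79.2% of *Vpreb1* in wildtype and 100%, 90.6% and 72.9% in *Pou4f3(Δ/+)*. All 11 *Vpreb1* counts of wildtype replicate 3 were thus on an ID with no entry in that annotation. The one found for *Igll1* (ENSMUST00000100136) held 56.1% to 91.4%, and ENSMUST00000143662 held 19.4% to 43.4% of *Fam129c*. In *Blnk*, the coding transcript ENSMUST00000117695 held 15.4%, 15.8% and 0% in wildtype and 16.9%, 27.6% and 34.8% in *Pou4f3(Δ/+)*, so *Pou4f3(Δ/+)* replicate 3 gave it the largest share. In *Fcrla*, ENSMUST00000159171 held 36.0%, 55.3% and 38.5% in wildtype and 51.8%, 51.3% and 36.1% in *Pou4f3(Δ/+)*, and the groups overlapped.

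Other genes of the lineage, from lists that hold no member, were used to place the difference between stages. In edgeR's quasi-likelihood test over all genes, 0 of 17136 (0%) had an adjusted p under 0.05, and without adjustment 3.50% had p under 0.05 and were higher in *Pou4f3(Δ/+)* and 4.14% were lower, 1309 genes in all. DESeq2 called 0.175% higher and 0.198% lower at an adjusted p under 0.05, 64 genes in all. DESeq2's calls took in 1 precursor gene higher (*Dntt*) and 1 lower (*Enpep*), 3 further B cell genes, 1 mature B gene (*Tnfrsf13c*) and 1 plasma cell gene (*Irf4*), these all higher. Among the marker lists of other cell types they took in 1 T cell gene higher (*Cd3e*), 1 osteoblast gene lower (*Sp7*) and 1 stria vascularis gene lower (*Kcne1*). With all 6 libraries no gene named below passed the adjusted edgeR test, and its p without adjustment is used only to count. Groups lay apart with *Pou4f3(Δ/+)* lower in 6.59% of genes.

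Among 9 tested precursor genes, 4 were higher and 1 was lower at an unadjusted p under 0.05, and the median log2 fold change was 0.36. *Rag2*, the partner of *Rag1*, stood at 0.990, 1.61 and 1.67 FPKM in wildtype against 3.77, 4.46 and 2.25 in *Pou4f3(Δ/+)*, so that log2 FC = 1.10 (SE 0.31, adjusted p = 0.643, edgeR). *Dntt*, which adds bases at the joints of rearranged genes, stood at 2.49, 1.79 and 1.13 FPKM in wildtype against 5.46, 5.68 and 3.19 in *Pou4f3(Δ/+)*, so that log2 FC = 1.41 (SE 0.32, adjusted p = 0.643, edgeR). Both genes had the order of the precursor members within *Pou4f3(Δ/+)*, replicate 2 highest and replicate 3 lowest, with all 3 libraries above wildtype. Within wildtype the order differed, since the precursor members were highest in replicate 4, *Rag2* in replicate 5 and *Dntt* in replicate 3. *Il7r*, the receptor for the growth factor of precursor B cells and also a T cell gene, was 8.91 and 12.7 FPKM in replicates 1 and 2 but 3.36 FPKM in replicate 3, within 3.23 to 3.50 FPKM in wildtype. *Enpep*, a precursor B antigen that other cells also make, was lower, with 45.8 to 48.6 FPKM in wildtype against 32.6 to 41.0 in *Pou4f3(Δ/+)* (log2 FC = -0.39, SE 0.09, adjusted p = 0.643, edgeR). *Cd93*, an early B lineage antigen that endothelial cells also make, stood at 13.2, 13.8 and 12.6 FPKM in wildtype against 16.8, 18.5 and 15.6 in *Pou4f3(Δ/+)* (log2 FC = 0.37, SE 0.09, adjusted p = 0.643, edgeR), and the groups did not overlap. *Erg*, *Lef1*, *Arpp21* and *Bst1* overlapped between the groups.

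Of 11 further genes that B cells use at most stages, 7 were higher and 0 lower at an unadjusted p under 0.05, with a median log2 fold change of 0.43. *Blk*, a kinase of the B cell receptor, stood at 3.11, 4.01 and 2.80 FPKM in wildtype against 8.40, 9.96 and 4.49 in *Pou4f3(Δ/+)*. *Cd79b*, the partner of *Cd79a*, stood at 25.9 to 32.3 FPKM and 35.9 to 67.9 FPKM, and *Pou2af1*, a coactivator of Oct factors, at 11.2 to 15.8 FPKM and 16.6 to 39.3 FPKM. The regulator *Pax5* had 8.31 FPKM in *Pou4f3(Δ/+)* replicate 3, within the wildtype values of 6.88 to 8.70 FPKM, although in CPM it was just above wildtype. *Ighm*, the heavy chain of IgM, was uneven in both groups, with 220.0, 977 and 162 FPKM in wildtype against 321, 719 and 208 in *Pou4f3(Δ/+)*.

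Of 12 mature B cell genes, 3 were higher and 0 lower at an unadjusted p under 0.05, with a median log2 fold change of 0.68, which was 1.08 without *Pou4f3(Δ/+)* replicate 3 and 0.39 without replicate 1. *Ighd*, the heavy chain of IgD, stood at 29.9, 25.7 and 24.8 FPKM in wildtype against 61.2, 78.3 and 16.9 in *Pou4f3(Δ/+)*. The chemokine receptor *Cxcr5* stood at 4.34, 3.29 and 3.15 FPKM and at 7.39, 7.42 and 1.62 FPKM, and the IgM receptor *Fcmr* at 13.8, 10.2 and 12.6 FPKM and at 25.1, 26.8 and 8.48 FPKM. In these 3 genes replicates 1 and 2 were above, and replicate 3 below, every wildtype library. The receptor for the survival factor BAFF, *Tnfrsf13c*, was the exception that lay apart in all 3, at 6.15 to 6.65 FPKM in wildtype against 7.20 to 14.6 in *Pou4f3(Δ/+)*. *Cd180* and *Cd40*, which myeloid cells also make, had log2 fold changes of -0.09 and -0.11.

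**Figure D2:**
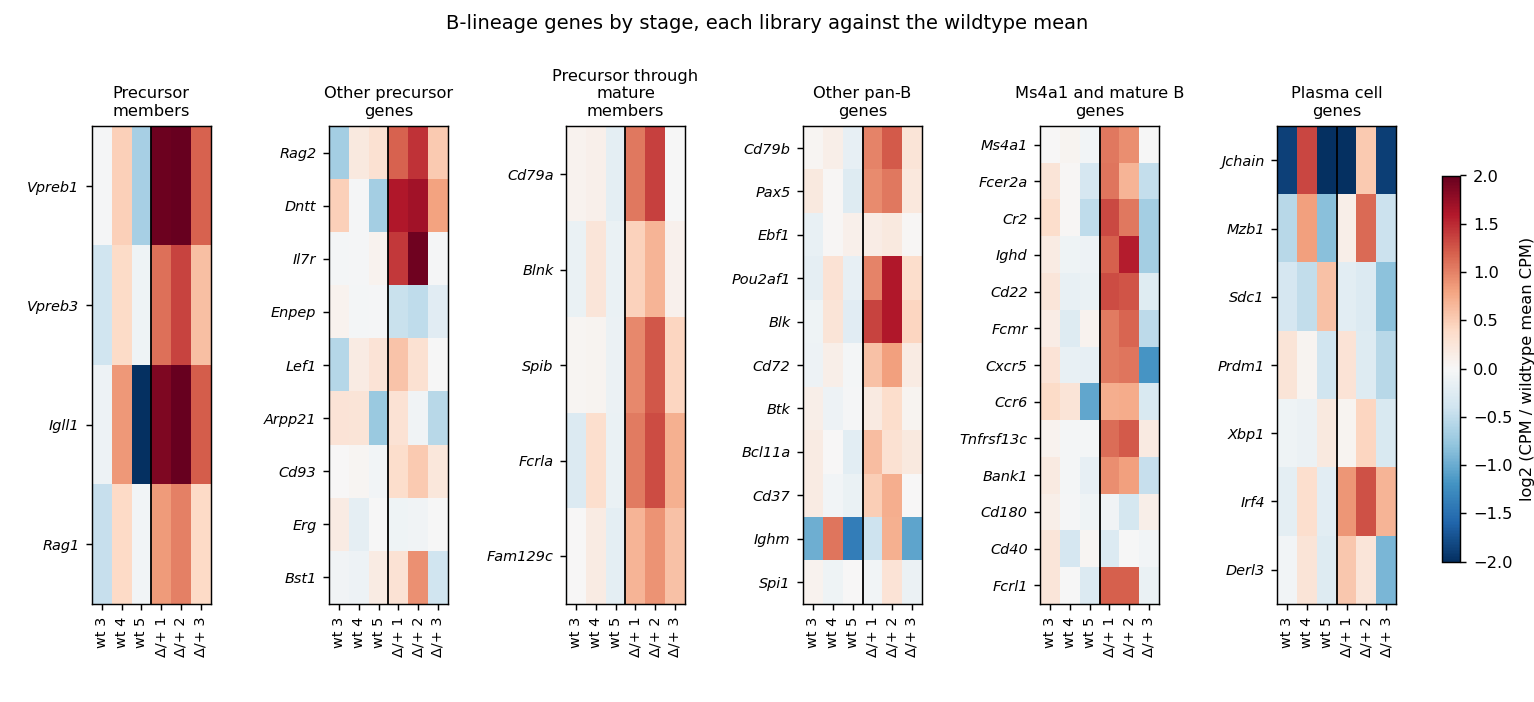
Level of each B-lineage gene in each library as log2 of its CPM over the wildtype mean (colour, limited to -2 to 2), in blocks from precursor to plasma cell genes; columns are wildtype replicates 3 to 5 and Pou4f3(Δ/+) replicates 1 to 3. Most blocks are red in Pou4f3(Δ/+) replicates 1 and 2. In replicate 3 the precursor members, which were chosen for being higher in Pou4f3(Δ/+), are red. Of the 12 mature B genes, 7 are below all wildtype libraries there.

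Counted by library, *Pou4f3(Δ/+)* replicate 1 lay above all wildtype libraries in 10 of 12 mature B genes, where 29.1% of all genes lay above and 30.6% below. Replicate 2 did so in 10 of 12 and lay below in 1, where 30.9% of all genes lay above and 32.3% below. Replicate 3 lay above in 2 of 12 and below in 7, where 24.2% of all genes lay above and 25.1% below. The 4 precursor members, which were chosen for being higher in *Pou4f3(Δ/+)*, were 4 of 4 above in each of the 3 libraries. Of the 9 tested precursor genes that are no member, 7, 6 and 3 lay above in replicates 1, 2 and 3, and 1, 1 and 2 below. Without replicate 3, edgeR called 0.651% of 17513 genes higher and 0.451% lower at an adjusted p under 0.05. The higher calls then included 8 of 12 mature B genes, 6 of 11 further B cell genes, 2 of 9 precursor genes (*Dntt* and *Il7r*) and 4 of 7 T cell genes. The lower calls included *Enpep* and 2 of 3 stria vascularis genes (*Kcne1* and *Kcnq1*). Replicate 3 was the library with 7 of 12 mature B genes below wildtype, so leaving it out favours such calls. Leaving out any other library gave 0 or 3 genes called. The lists were also written with earlier results known, so these calls are only a description.

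The stages were then set against each other within each library. The mean log2 CPM of the 4 precursor members was 1.95, 2.69 and 1.57 in wildtype and 3.57, 3.80 and 3.00 in *Pou4f3(Δ/+)*. The mean over 13 genes of the mature stage, *Ms4a1* with the mature B list, was 4.05, 3.79 and 3.64 in wildtype and 4.73, 4.71 and 3.51 in *Pou4f3(Δ/+)*. All *Pou4f3(Δ/+)* libraries were higher in the first mean, while in the second replicate 3 was the lowest of the 6. The precursor mean minus the mature mean was -2.09, -1.10 and -2.07 in wildtype and -1.16, -0.91 and -0.51 in *Pou4f3(Δ/+)*. Replicate 1 lay just under wildtype replicate 4, so the groups overlapped. The fitted log2 fold changes averaged 0.76 more in the precursor members than in the mature genes, and 1.16 more without wildtype replicate 4. The precursor members and *Ms4a1* were chosen for being higher in *Pou4f3(Δ/+)*, and the lists with earlier results known, so this excess is no evidence for a stage.

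That placement depended on which precursor genes were used. With the lists that hold no member, 9 precursor genes against 12 mature B genes, the same value was -0.12. The difference of their means was 0.12, 0.47 and 0.51 in wildtype and 0.06, 0.19 and 0.77 in *Pou4f3(Δ/+)*, so replicates 1 and 2 were not above wildtype and replicate 3 was. Among the 9, log2 fold changes ran from -0.39 (*Enpep*) to 1.41 (*Dntt*), and among the 12 from -0.11 (*Cd40*) to 0.97 (*Ighd*). Other cells also make some of the 9, among them *Enpep* and *Cd93*, and the value was not taken without those genes. Single pairs of genes were also compared within a library, since depth does not change their ratio. The FPKM of *Vpreb3* over that of *Ighd* was 0.358, 0.721 and 0.526 in wildtype and 0.495, 0.457 and 1.29 in *Pou4f3(Δ/+)*. *Rag1* over *Ighd* was 0.122, 0.262 and 0.196 in wildtype and 0.150, 0.129 and 0.401 in *Pou4f3(Δ/+)*. *Dntt* over *Ighd*, a pair with no member, was 0.0832, 0.0696 and 0.0456 in wildtype and 0.0893, 0.0726 and 0.188 in *Pou4f3(Δ/+)*. *Vpreb1* over *Ighd* was 0.0291, 0.0463 and 0.0214 in wildtype and 0.0543, 0.0433 and 0.117 in *Pou4f3(Δ/+)*. *Vpreb3* over *Ms4a1* was 0.677, 1.12 and 0.863 in wildtype and 0.920, 1.20 and 1.38 in *Pou4f3(Δ/+)*. Replicate 3 was the highest library in these 5 ratios, while replicates 1 and 2 lay within the wildtype range in some and above it in others. These values did not place the difference at 1 stage. In replicate 3 the mean of the 9 precursor genes that are no member was 0.06 above the wildtype mean on the log2 scale, as in wildtype replicate 4, while that of the mature B genes was -0.34.

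**Figure D3:**
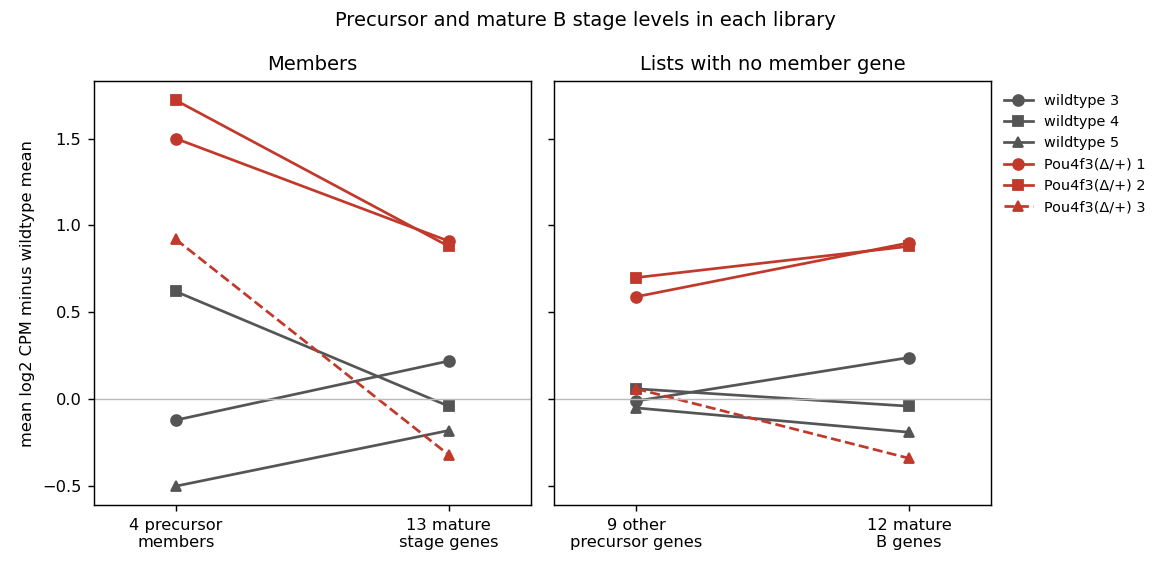
Mean log2 CPM of a stage in each library minus the wildtype mean (y axis), with lines joining the precursor to the mature stage of a library; left, the 4 precursor members and 13 mature stage genes, right, 9 precursor and 12 mature B genes from lists that hold no member. Pou4f3(Δ/+) replicates 1 and 2 are high at both ends, and replicate 3 (dashed) falls from 0.92 to -0.32 on the left and from 0.06 to -0.34 on the right.

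At the end of the lineage, 1 of 7 tested plasma cell genes was higher at an unadjusted p under 0.05 and the median log2 fold change was 0.09. The sign of this median was not stable, with -0.21 without *Pou4f3(Δ/+)* replicate 1 and 0.26 without replicate 3. The 1 higher gene was *Irf4*, which precursor B cells also use, at 2.97 to 4.43 FPKM in wildtype against 5.68 to 8.27 in *Pou4f3(Δ/+)*. *Jchain*, the joining chain of secreted antibody, stood at 8.59, 81.6 and 6.09 FPKM in wildtype against 7.71, 45.9 and 8.83 in *Pou4f3(Δ/+)*. It was high in the same 2 libraries as *Ighm*, 1 of each genotype. *Tnfrsf17* was too low to test.

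Genes of other cell types also differed between the libraries. Of 7 T cell genes, the median difference from the wildtype mean was 0.96 and 1.36 on the log2 scale in *Pou4f3(Δ/+)* replicates 1 and 2 and -0.27 in replicate 3, and their summed level was 15.2 to 17.5 FPKM in wildtype against 13.9 to 38.2 in *Pou4f3(Δ/+)*. In CPM all 7 were above the wildtype libraries in replicates 1 and 2, while 5 were below them and 1 above in replicate 3, with 3 higher and 0 lower at an unadjusted p under 0.05, and none was at 0 in all libraries. Of the defining markers, *Cd3e*, *Cd3g* and *Cd3d* stood at 1.41 ± 0.418, 2.00 ± 0.370 and 0.477 ± 0.142 FPKM in wildtype (SD, n = 3). In *Pou4f3(Δ/+)* replicates 1, 2 and 3 *Cd3e* stood at 4.28, 6.56 and 1.71 FPKM, *Cd3g* at 3.83, 5.05 and 1.05 and *Cd3d* at 1.22, 2.04 and 0.38. The last 2 were below every wildtype library in replicate 3. The 6 erythroid genes had medians of 0.54, 0.49 and -0.01 in *Pou4f3(Δ/+)* replicates 1, 2 and 3, and summed to 10547 to 12102 FPKM in wildtype against 11202 to 16003 in *Pou4f3(Δ/+)*. The 7 neutrophil genes had a median log2 fold change of -0.04, with 1 lower at an unadjusted p under 0.05. In *Pou4f3(Δ/+)* replicates 1, 2 and 3, 0, 3 and 3 of them were above all wildtype libraries in CPM and 4, 2 and 0 below. They summed to 13455 to 15774 FPKM in wildtype and 13647 to 16342 FPKM in *Pou4f3(Δ/+)*. Of 5 plasmacytoid dendritic cell genes, which matter here because *Spib* is also used there, 1 was higher (*Siglech*, 5.73 to 8.31 and 9.25 to 10.6 FPKM), and the list's median was 0.12.

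The remaining lists bear on the tissue taken. The 6 cell cycle genes had a median log2 fold change of 0.15, the 3 stem and progenitor genes -0.10, the 4 macrophage genes 0.06 and the 3 osteoclast genes -0.11. Of 5 osteoblast genes, 2 were lower and 0 higher at an unadjusted p under 0.05, and the median was -0.21. Without *Pou4f3(Δ/+)* replicate 3 the osteoblast median was -0.03 and the osteoclast median 0.07. The defining markers differed: *Sp7* stood at 19.0 to 26.4 FPKM in wildtype against 13.5 to 14.9 in *Pou4f3(Δ/+)*, while *Bglap* (log2 FC 0.38) and *Ibsp* (log2 FC -0.21) overlapped between the groups. The 5 hair cell genes had a median of -0.02. Of 3 genes of the stria vascularis, the epithelium that makes the fluid of the cochlear duct, 2 were lower, and *Kcne1* stood at 47.1 to 49.3 FPKM in wildtype against 28.4, 15.9 and 34.7 in *Pou4f3(Δ/+)*. The part of these other cell types in the difference of the members was not tested.

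**Figure D4:**
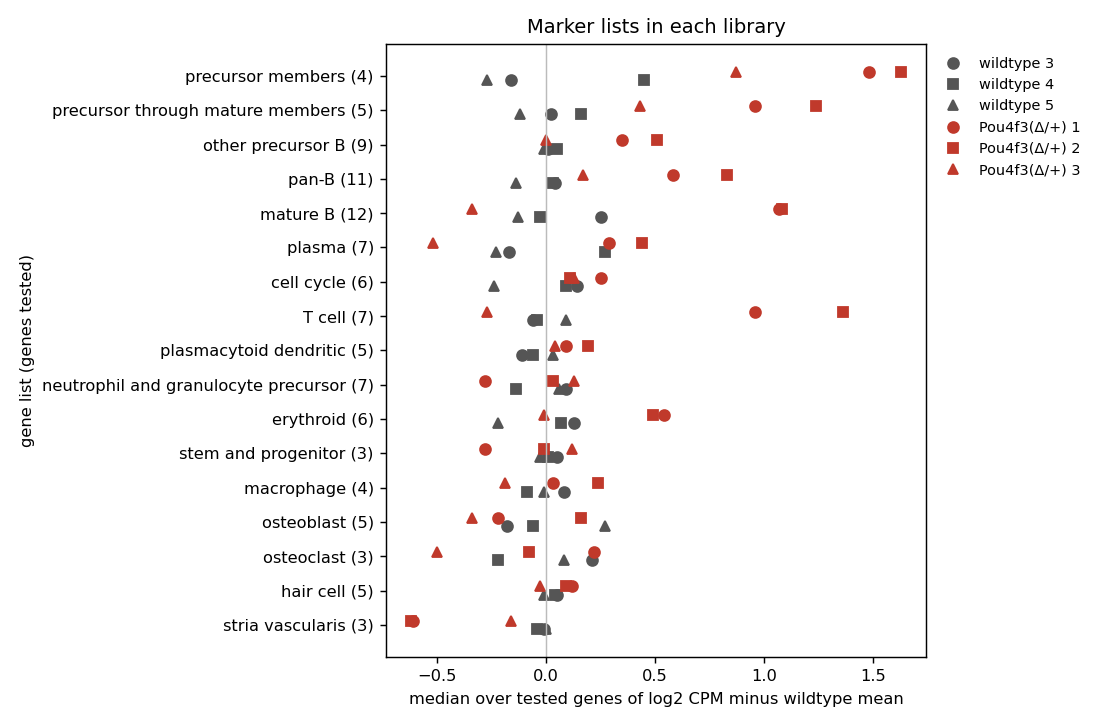
Median over the tested genes of each list of log2 CPM minus the wildtype mean (x axis) in each library; the number of genes is in brackets. The B cell, T cell and erythroid lists lie to the right in Pou4f3(Δ/+) replicates 1 and 2 (erythroid 0.54 and 0.49, T cell 0.96 and 1.36), and stria vascularis genes to the left (-0.61 and -0.62).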

How the data were processed

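Cochlear RNA of mice, 3 libraries of wildtype and 3 of *Pou4f3(Δ/+)*, was sequenced with paired-end reads. For each of 128603 transcripts the authors deposited an expected count (an estimate that need not be whole, not normalized) and an FPKM value (scaled to length and depth). The submitters' processing notes name DESeq2 and the build mm8, while coordinates were taken from GENCODE M21 of GRCm38, which lacks 2 of the 3 transcript IDs listed for *Vpreb1* and for *Igll1*; aligner and counting program are not given in the sources used here. The library kit was not stated to keep strand.

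Counts and FPKM were summed per gene symbol. Rounded counts were tested with edgeR 4.0.16 in R 4.3.3 (filterByExpr, minimum count 10 and total 15; TMM; quasi-likelihood test; Benjamini-Hochberg adjustment over all genes). Standard errors are the log2 fold change over the square root of F. Log2 CPM used a prior count of 2. The test was also run on simulated counts with known fold changes, and the outcome is not reported here. Alternatives were DESeq2 1.42.0, its size factors in edgeR, no filter, limma-trend (limma 3.58.1) on log2(FPKM + 0.5, 0.1 or 1), an adjusted p of 0.1, each library left out, and other gene choices for the stages. The members and lists were chosen with earlier results of these data known. Named were the members, genes of the B-lineage lists, the 6 genes most correlated with the members and the first 3 markers of other lists. One gene of the list for most B cell stages is not reported here and was left out of its counts. Start regions are from RefSeq.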

Additional observations from a re-analysis of the deposited data

How the results depend on the processing

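The number of genes with an adjusted p under 0.05, 0 in edgeR, was 64 with DESeq2, 9 without the filter on low counts (which tested 27491 genes) and 1 with limma-trend on log2(FPKM + 0.1), and 0 to 193 when 1 library was left out, the 193 without *Pou4f3(Δ/+)* replicate 3 and 3 without wildtype replicate 4. The other settings gave 0. The cause was not tested. The median log2 fold change of the 10 members, 0.92, was 0.69 to 1.15 with 1 library left out, and each member stayed above 0 in every alternative. *Vpreb1* was the single member value to move by more than its spread between libraries, from 1.77 to 1.06 with limma-trend on log2(FPKM + 1), a pseudocount close to its level. Leaving out 1 library gave list medians of 0.29 to 0.45 for the precursor list, 0.37 to 0.62 for the pan-B list, 0.39 to 1.08 for the mature B list and -0.21 (without *Pou4f3(Δ/+)* replicate 1) to 0.26 for the plasma list. With limma-trend on log2(FPKM + 0.5, 0.1 or 1) the plasma median was -0.10, -0.12 and -0.08. The precursor minus mature difference, 0.76, was 0.54 to 1.16 with 1 library left out, the highest without wildtype replicate 4, and -0.12 with the lists that hold no member. Without *Cd180* and *Cd40*, left out after their values were seen, it was 0.63. No paired analysis was possible because the groups share only replicate number 3. With 3 libraries per genotype and 7 to 46 counts for *Vpreb1* and *Igll1* in wildtype, counting error adds to their spread.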
